A study of Homo sapiens with 2 samples.

Results

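RAB GTPases are small membrane-bound switches that direct vesicle traffic, and 61 of the 27685 genes listed in the deposited gene table were taken as members. A member has a symbol made of RAB, a number and at most one closing letter from A to D, and no description as a pseudogene. This rule used no measured value, but members were chosen with earlier results of these data known. RNA came from cells of NCI-H838, a human line derived from a lung adenocarcinoma, collected 48 hours after a transient transfection with a lipid reagent. The LINC00472 library came from cells that received a pCDH plasmid carrying full-length LINC00472, which is a long intergenic noncoding RNA. The control library came from cells with the empty pCDH vector. Both groups share the cell line, the vector backbone and the transfection. Each group held 1 library, so differences have no replicate check and no p-value, and every interval covers counting error only.

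A RAB protein is on when it holds GTP and off when it holds GDP. In the active state it sits on one particular membrane and recruits effectors such as motors, tethers and lipid kinases, and this is why the family is used to name compartments of the secretory and endocytic routes. Exchange factors switch a RAB on, GTPase-activating proteins switch it off, and escort proteins and GDP dissociation inhibitors handle the lipid-modified protein between membranes. Many RABs occur as close paralogs that share a compartment.

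Gene counts totalled 21093055 for LINC00472 and 54823706 for the control. LINC00472 itself had 5655 against 2563 counts, which is 25.3 against 4.74 FPKM (a level per length of transcript and per size of library). The keratins of simple epithelium KRT7, KRT8 and KRT18 were present at 12.02, 26.5 and 23.9 FPKM in the LINC00472 library and at 37.1, 94.2 and 157 FPKM in the control library. The lung lineage markers NKX2-1 and SFTPB had 0 counts in both libraries. A further keratin, KRT19, had 0 against 44 counts, the same direction at a low level. Other epithelial markers did not follow the keratins: the log2 ratio was 0.47 for CDH1, -0.19 for EPCAM and 1.49 for NAPSA. Of blood cell markers, PTPRC had 0 against 32 counts, CD3E 0 in both, HBB 0 against 4 and CD68 432 against 1498. Of endothelial markers, PECAM1 had 0 against 6 counts, CDH5 0 against 9 and VWF 35 against 48. Of fibroblast markers, COL1A1 had 237 against 458 counts (log2 0.14), COL1A2 15 against 68 (-1.08), DCN 0 against 28, LUM 40 against 169 (-0.98) and PDGFRB 16 against 60. Their part in the results was not tested. In bulk RNA, fewer cells of one kind and less RNA per cell cannot be told apart.

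Close RAB paralogs carry similar proteins in different coding sequence, and the counts of such paralogs are compared below. The segments shown come from GENCODE 29 transcripts (GRCh38, sense strand) and begin at the conserved switch II codons, the part of the protein that moves when GTP is hydrolysed. Each holds 60 bases, which are 20 codons, and capitals mark the bases that differ within a pair. The pairs are RAB5C with RAB5A and RAB8A with RAB8B, where the member richer in GC was the lower one, and RAB6A with RAB6B, where it was not.
RAB5C: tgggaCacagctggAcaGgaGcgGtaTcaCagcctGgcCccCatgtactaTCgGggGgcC
RAB5A: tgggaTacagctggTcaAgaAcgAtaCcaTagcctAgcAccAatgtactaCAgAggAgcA
RAB8A: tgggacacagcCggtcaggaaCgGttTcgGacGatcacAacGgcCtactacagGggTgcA
RAB8B: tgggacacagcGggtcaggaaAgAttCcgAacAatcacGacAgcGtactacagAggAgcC
RAB6A: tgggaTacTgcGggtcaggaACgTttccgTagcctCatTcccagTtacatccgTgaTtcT
RAB6B: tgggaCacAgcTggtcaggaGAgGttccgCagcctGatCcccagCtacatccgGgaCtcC
Counted from the A of the start codon as base 1, the segments are bases 223 to 282 of RAB5C, 220 to 279 of RAB5A, 184 to 243 of RAB8A and RAB8B, and 199 to 258 of RAB6A and RAB6B. The RAB5 segments differ at 15 bases, the RAB8 segments at 12 and the RAB6 segments at 13, and both members of each pair encode the same amino acids there. Of the differing bases, 14, 11 and 12 lie at codon position 3. The segment of RAB5C holds 39 G or C bases and that of RAB5A 29.

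Over the whole coding sequence, 14 of the 15 pairs of close paralogs had a nucleotide identity of 68.8 to 79.7% and a protein identity of 67.0 to 93.5%. RAB10 and RAB13 are left out of this range because the transcript used for RAB13 has a short coding sequence of 366 nt, over which identity to RAB10 was 65.2% in bases and 59.6% in protein. The longest stretch of identical bases was 14 to 26 nt in these 14 pairs, except for RAB40C and RAB40B with 55 nt. Reads longer than such a stretch can therefore be told apart between paralogs. Other sources of shared sequence remain. Among the 48 members at the expression minimum described below, 3 had over 50% of the 50-base windows of their transcript in a transcript of another gene, on either strand. These were RAB4B (100%, shared with the readthrough loci RAB4B-EGLN2 and MIA-RAB4B), RAB43 (90.9%, shared with ISY1-RAB43) and RAB23 (58.3%, shared with the neighbour BAG2), and their counts are uncertain. RAB24 shared 46.9% with MXD3, RAB5C 43.0%, RAB8A 38.9%, RAB13 38.3%, RAB1B 34.8% and RAB6A 30.5% with other annotated loci.

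The control library showed which RABs these cells carry. RAB34, which acts in lysosome positioning and cilium formation, led with 65.2 FPKM. RAB5A, the organiser of early endosome fusion, RAB1B, which acts in transport from the endoplasmic reticulum to the Golgi, and RAB10, which delivers vesicles to the plasma membrane, followed at 47.3, 47.2 and 47.0 FPKM. RAB13, a regulator of junctional traffic, had 46.4, RAB6A of the Golgi 41.2, RAB5C 39.03, RAB2A 38.3, RAB1A 35.0, RAB8A 32.5, RAB11A 29.1 and RAB18 25.9 FPKM. These 12 genes held 60.8% of the 813 FPKM summed over the family, and the median member had 6.67 FPKM. Neighbours in this order such as RAB5A, RAB1B, RAB10 and RAB13 lay within 1 FPKM of each other, and without replicates their order carries no weight.

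In the LINC00472 library the order was different. RAB13 came first with 42.3 FPKM and RAB5A remained in the same place with 36.3 FPKM, followed by RAB18 with 26.8, RAB34 with 25.9, RAB1A with 25.9 and RAB6A with 23.2 FPKM. RAB1B moved from place 3 to place 17 with 13.9 FPKM, RAB5C from 7 to 21 with 9.13 and RAB8A from 10 to 20 with 9.67 FPKM. RAB12, RAB24 and RAB31 took their places among the 12 highest, with 20.1, 19.5 and 15.7 FPKM, and 9 genes were among the 12 highest of both libraries. The family summed to 522 FPKM, against 813 in the control library. Protein-coding genes together summed to 229523 against 370468 FPKM and all genes to 440014 against 490462, so a lower sum is not particular to the family. The family took 0.186% of all gene counts (exact Clopper-Pearson 95% interval 0.184 to 0.188) against 0.253% (0.252 to 0.255) in the control library. In FPKM, 13 of the 48 members at the minimum were higher in the LINC00472 library and 35 lower. The same count was not made over all genes, so these numbers have no background.

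**Figure D1:**
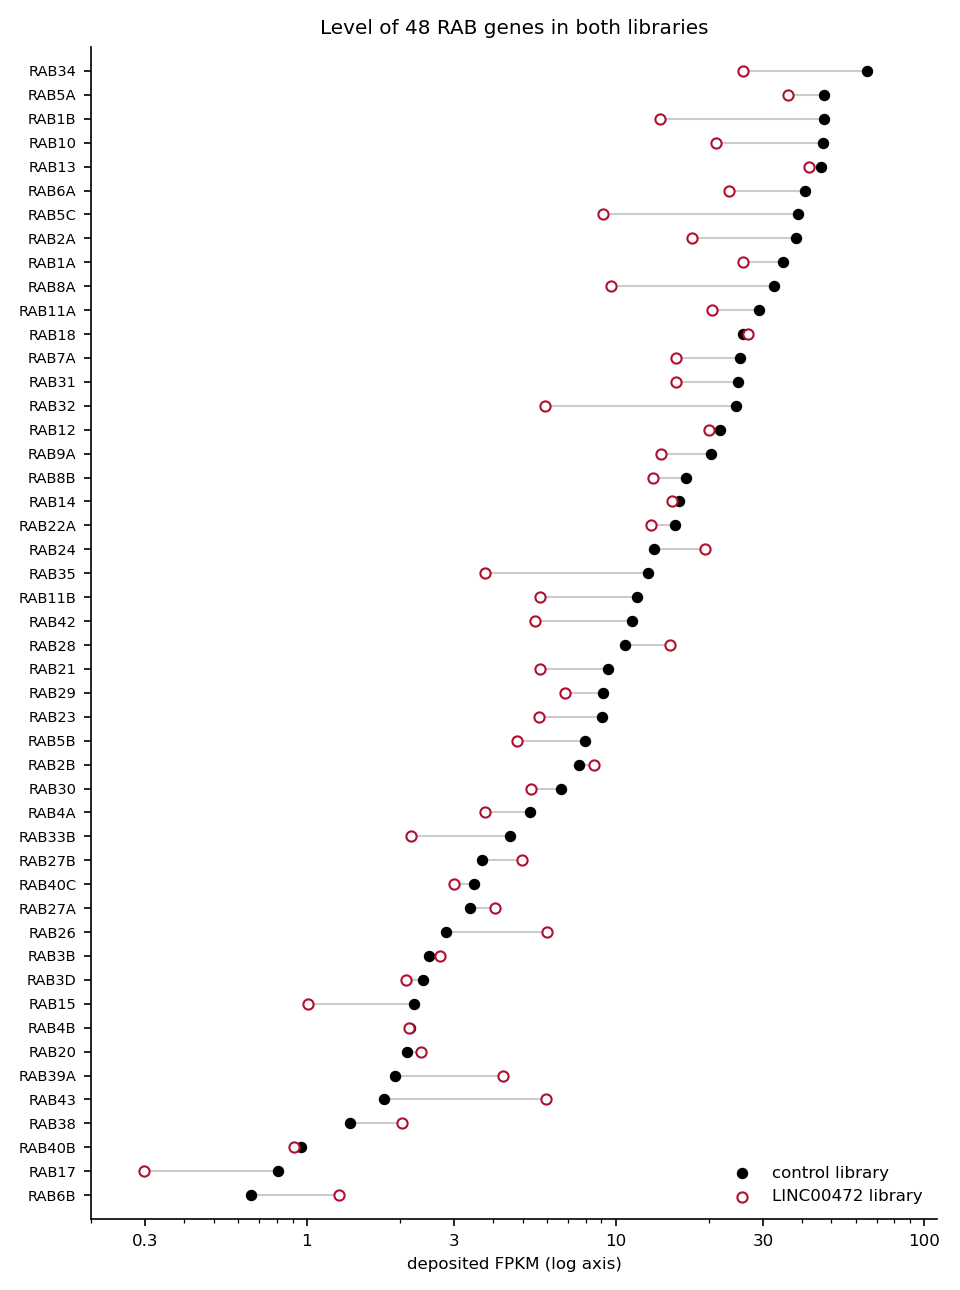
Level of each of the 48 RAB genes at the expression minimum in deposited FPKM on a log axis, ordered by the control library (filled points), with the LINC00472 library as open points. RAB1B, RAB5C, RAB8A, RAB32 and RAB35 show wide gaps to the left, while RAB13, RAB12, RAB14, RAB18 and RAB4B lie close to their control level and RAB43 lies to the right.

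Ratios were taken from counts after scaling by TMM factors. To be called higher or lower, a gene needed a mean of 1 CPM or more (the count relative to library size), a ratio of 2-fold or more, and a 95% interval on the counts that did not include equality. Of the 61 members, 48 reached the minimum, and 14 of them were lower in the LINC00472 library, a share of 29.2% beside a background of 23.8% among all 14012 genes tested. The share of lower members is thus near the background, and nearer still to the 26.3% of protein-coding genes. Of the 48, 1 was higher, a share of 2.08% beside a background of 16.3% (11.3% of protein-coding genes). In either direction 15 members were called, or 31.3%, beside 40.2% of all genes and 37.6% of protein-coding genes. The remaining 33 members were not called, 25 with a ratio below equality and 8 with one above. The median log2 ratio of the 48 members was -0.57, against -0.19 for all genes and -0.32 for protein-coding genes.

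These counts moved with the scaling. Total-count scaling gave 9 lower and 4 higher members, beside 16.3% lower and 22.5% higher among all genes. Upper quartile factors gave 7 lower and 4 higher, beside 14.2% and 25.1%. Across all genes the median ratio, -0.19 after TMM, stood at 0.11 when scaled by total counts and at 0.21 when scaled by upper quartiles, so each ratio is read against -0.19. The family's median minus that of all genes was -0.38 after TMM and -0.39 after each of these other scalings. Each of them moves every log2 ratio by the same amount, so this difference could hardly change. RAB1B, RAB5C, RAB8A, RAB32 and RAB35 were called lower under each of the 10 alternatives tried.

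**Figure D2:**
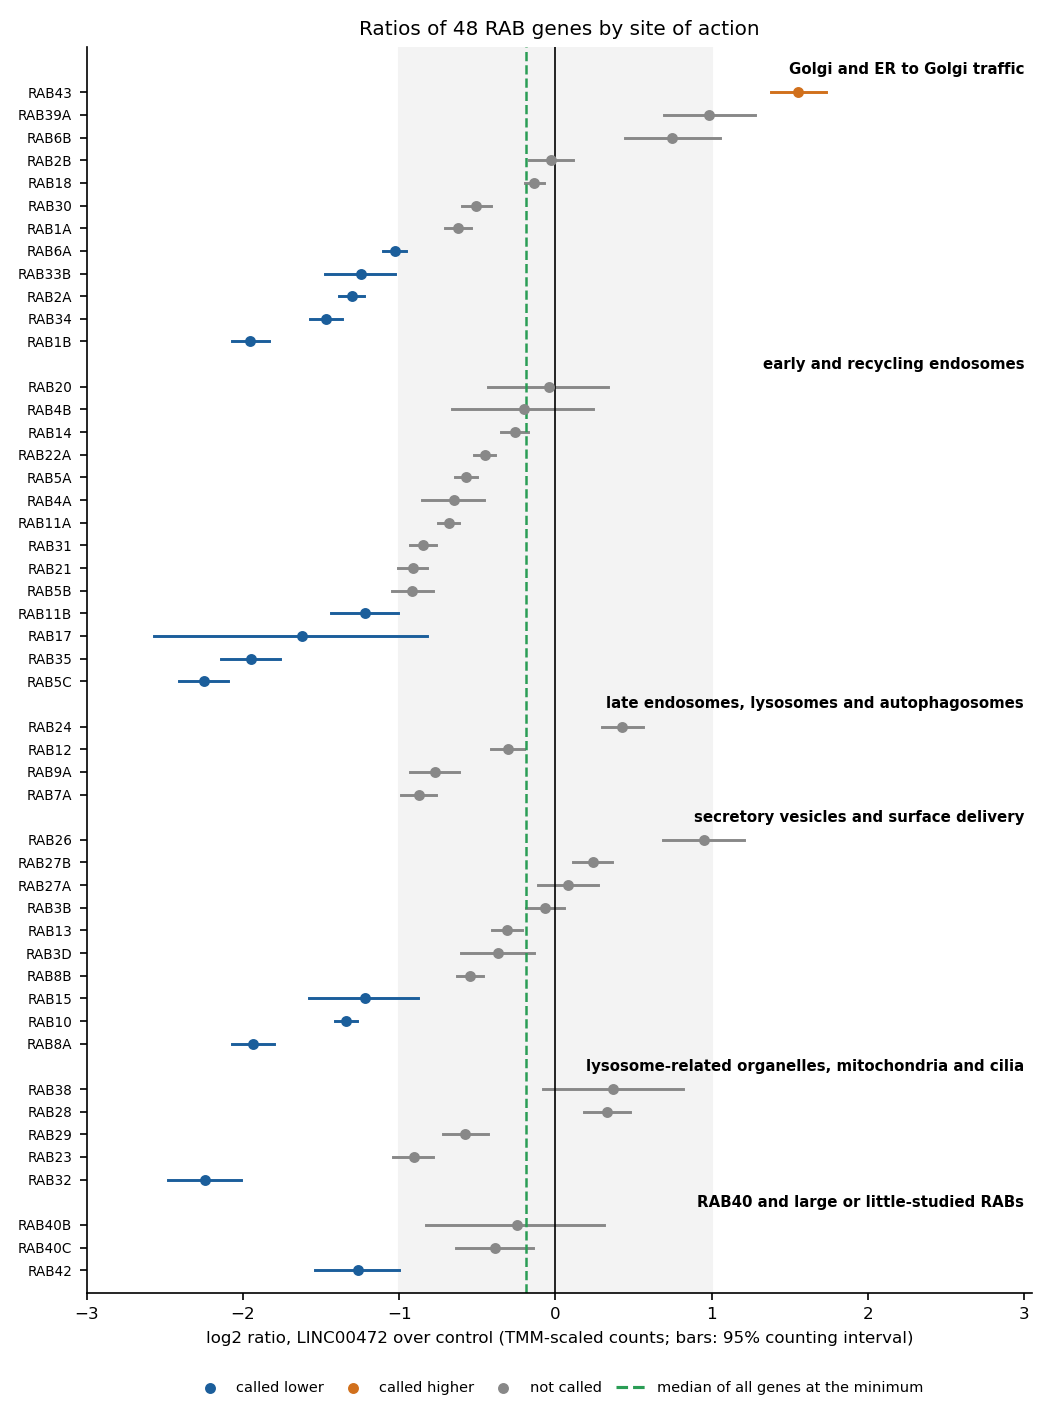
Log2 ratio of LINC00472 over control for the 48 RAB genes, grouped by the membrane on which they act; points are TMM-scaled count ratios, bars are 95% counting intervals, and the shaded band marks less than a 2-fold ratio. The point of RAB43 alone lies to the right of the band, and RAB5C, RAB32, RAB1B, RAB35 and RAB8A lie farthest to the left.

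Among RABs of the Golgi and of transport from the endoplasmic reticulum, 12 of 18 reached the minimum, with 5 lower (41.7%, beside 23.8% of all genes) and 1 higher (8.33%, beside 16.3%). Groups of this size hold too few genes for such shares to set them apart from the background. RAB1B (NCBI gene ID 81876), which helps to tether vesicles at the Golgi, had 638 counts after LINC00472 transfection and 5252 in the control. That is 3.87-fold lower (log2 -1.95, interval -2.07 to -1.83). RAB34 was 2.76-fold lower (945 against 5559 counts, log2 -1.47, interval -1.57 to -1.37), but not called with ratios adjusted for the length, intron length and GC content of the transcript (-0.95). RAB2A, which acts in retrograde and Golgi transport, was 2.47-fold lower (1581 against 8304 counts). RAB33B, which links the Golgi to autophagosome formation, was 2.37-fold lower (199 against 1005 counts), and fell short of the rule with total counts (log2 -0.96), upper quartile factors (-0.86) and FPKM (-0.92). RAB6A, a RAB of transport within and from the Golgi, was 2.04-fold lower (1831 against 7949 counts), close to the limit of the rule, and was not called with total counts (log2 -0.74), upper quartile factors (-0.64) or FPKM (-0.81). RAB2A stayed under 2-fold with upper quartile factors (log2 -0.92).

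RAB43 (NCBI gene ID 339122), a Golgi-associated RAB, was the only member called higher. It had 628 counts against 455 in the control, or 5.95 against 1.78 FPKM, a 2.93-fold ratio (log2 1.55, interval 1.38 to 1.73). The overlapping readthrough locus ISY1-RAB43 is listed with 0 counts in both libraries, and its other parent gene ISY1 had a log2 ratio of -0.68. In the same group RAB39A (190 against 204 counts, log2 0.98, interval 0.69 to 1.28) and RAB6B (166 against 210, log2 0.75) lay above equality without being called, and both were called with total counts (1.27 and 1.04) and upper quartile factors (1.37 and 1.14). RAB18 of the endoplasmic reticulum and lipid droplets (log2 -0.14), RAB2B (-0.03), RAB30 (-0.51) and RAB1A (-0.62) were not called.

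Among RABs of early and recycling endosomes, 14 of 15 reached the minimum. Of these, 4 were lower (28.6%, beside 23.8% of all genes) and 0 higher (beside 16.3%). The ratios of all 14 lay below equality, as did those of 7947 of 14012 genes and of 7566 of 12245 protein-coding genes. Read against the all-gene median of -0.19, RAB20 (-0.04) lay above it. RAB5C (NCBI gene ID 5878), an early endosome RAB, had 377 counts against 3819 and 9.13 against 39.03 FPKM. It was 4.76-fold lower (log2 -2.25, interval -2.41 to -2.10), the lowest ratio of the family at the minimum. RAB35, which returns receptors rapidly to the cell surface, was 3.86-fold lower (258 against 2121 counts, log2 -1.95, interval -2.14 to -1.76). RAB11B of recycling endosomes was 2.33-fold lower (219 against 1085 counts), and was not called with total counts (log2 -0.93), upper quartile factors (-0.83), FPKM (-0.98) or adjusted ratios (-0.75). RAB17, a RAB of polarised epithelial cells, had 14 counts against 93 (log2 -1.62, interval -2.57 to -0.82), a wide interval at a low level, and was not called with FPKM (-0.72).

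The other endosomal members were not called. The early endosome RABs RAB5A and RAB5B had log2 ratios of -0.57 and -0.91, RAB21, which acts in integrin traffic, -0.91, and RAB31 and RAB22A, which act between endosomes and the trans-Golgi, -0.85 and -0.45. RAB11A had 2386 counts against 8156 (log2 -0.68) and RAB4A, of rapid recycling, 270 against 903 (-0.65). RAB14, RAB4B and RAB20 lay nearest to equality with -0.26, -0.20 and -0.04. With total counts or upper quartile factors the ratios of some of these lie on the other side of equality, since those scalings raise every log2 ratio by 0.29 and 0.39.

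RABs of late endosomes, lysosomes and autophagosomes gave no calls among 4 members at the minimum, too few to set against the 23.8% of all genes. RAB7A, the main RAB of late endosomes and lysosomes, had 824 counts against 3217 (log2 -0.88, interval -0.99 to -0.77). RAB9A, which returns cargo from late endosomes to the trans-Golgi, had 425 against 1544 (-0.77), and RAB12 1011 against 2657 (-0.30). RAB24, a RAB linked to autophagy, lay above equality with 807 against 1275 counts (log2 0.43, interval 0.30 to 0.56). The overlapping gene MXD3 had a log2 ratio of 0.51. This group's share of the summed FPKM of the family was 13.3% after LINC00472 transfection against 9.94% in the control, while that of the Golgi group was 30.95% against 34.03%.

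Of the RABs of secretory vesicles and surface delivery, 10 of 13 reached the minimum, with 3 lower and 0 higher, beside 23.8% and 16.3% of all genes. RAB8A (NCBI gene ID 4218), which drives exocytosis at the plasma membrane and the cilium, was 3.82-fold lower (495 against 4024 counts, log2 -1.93, interval -2.07 to -1.80). RAB10 was 2.53-fold lower, with 1881 counts against 10127 (log2 -1.34, and -0.95 with upper quartile factors, which is short of 2-fold). RAB15 was 2.33-fold lower (84 against 417 counts) and was not called with total counts (log2 -0.93), upper quartile factors (-0.83) or FPKM (-0.85).

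Most RABs of regulated secretion had ratios nearer to equality or to the all-gene median of -0.19 than to 2-fold. RAB27A and RAB27B, which dock secretory granules and multivesicular bodies, had 331 against 665 and 818 against 1475 counts (log2 0.08 and 0.24). RAB3B and RAB3D, of the group that controls triggered exocytosis, had log2 ratios of -0.06 and -0.37, and the junctional RAB13 -0.31. RAB26, linked to secretory granules, had 238 counts against 262 (log2 0.95, interval 0.69 to 1.21) and was called higher with total counts (1.24), upper quartile factors (1.34) and adjusted ratios (1.51).

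Of 5 RABs of lysosome-related organelles, mitochondria and cilia, 1 was lower, again beside 23.8% of all genes. RAB32 (NCBI gene ID 10981), which acts in the biogenesis of melanosomes and related organelles and at mitochondria, had 168 counts against 1692 and 5.89 against 24.6 FPKM, and was 4.73-fold lower (log2 -2.24, interval -2.48 to -2.01). RAB23 and RAB28, both linked to cilia, had log2 ratios of -0.91 and 0.33, RAB29 -0.58 and RAB38 0.37. The gene BAG2, which overlaps RAB23, had a log2 ratio of -1.53. In the last group RAB42 was 2.40-fold lower (140 against 717 counts, log2 -1.27) and was not called with total counts (-0.98), upper quartile factors (-0.88), FPKM (-0.98) or adjusted ratios (-0.88). RAB40B and RAB40C, which carry a ubiquitin ligase adaptor domain, had log2 ratios of -0.25 and -0.38.

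The 13 members under the minimum add little. RAB19, RAB36, RAB37 and RAB41 had 0 counts in both libraries. RAB25, an epithelial relative of RAB11, had 0 counts against 18, RAB3C 0 against 20 and RAB44 0 against 9. RAB3A (22 against 33 counts), RAB33A (16 against 32), RAB9B (15 against 16), RAB6C (6 against 18), RAB40A (2 against 10) and RAB39B (2 against 4) had too few counts for a ratio to be read. At these counts the LINC00472 library, with the smaller total, cannot show absence, since a count of 0 allows up to 3 counts.

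Ratios within a pair of paralogs do not depend on how the libraries are scaled, because both members share the same factor. For 15 pairs with both members at the minimum, the share of the pair's counts held by the member with the lower ratio was compared between libraries, and the difference of the log2 ratios was given the exact conditional 95% interval of the odds ratio. The member named first in each pair is the one with the lower ratio, so the direction is fixed by this order and only the size is described. The interval excluded 0 in 12 of the 15 pairs, and 8 pairs differed by at least 2-fold. Other pairs of genes were not counted, so these numbers have no background and do not set paralogs apart. Among all genes 40.2% were called in either direction, and counting intervals are narrow at these depths. Some pairs share a member, as the RAB5 genes do.

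RAB32 held 93.6% of the counts of RAB32 and RAB38 in the control library and 70.6% in the LINC00472 library, a difference of -2.61 on the log2 scale (interval -3.12 to -2.10). RAB6A held 97.4% against 91.7% of the counts shared with RAB6B (-1.78, interval -2.09 to -1.47). RAB5C held 35.9% against 14.9% of the counts shared with RAB5A (-1.68, interval -1.85 to -1.51). In FPKM, RAB5C stood at 0.825 times RAB5A in the control library and at 0.252 times RAB5A in the LINC00472 library.

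RAB8A held 46.2% of the counts of RAB8A and RAB8B in the control library and 24.7% in the LINC00472 library (-1.39, interval -1.55 to -1.23). Per length the order of the pair turned over, since the FPKM of RAB8A was 1.92 times that of RAB8B in the control library and 0.733 times in the LINC00472 library. RAB1B and RAB1A, the pair that serves the first step of secretion, held near-equal counts in the control library, 49.99% being RAB1B, while RAB1B held 28.5% in the other library (-1.33, interval -1.47 to -1.18). Their FPKM ratio went from 1.35 to 0.536. RAB2A against RAB2B differed by -1.28 (interval -1.44 to -1.11), RAB5C against RAB5B by -1.34 (-1.54 to -1.13) and RAB10 against RAB13 by -1.03 (-1.15 to -0.91). RAB10 was level with RAB13 in FPKM in the control library (a ratio of 1.01) and at 0.499 times RAB13 in the LINC00472 library.

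Other pairs differed less. RAB11B against RAB11A differed by -0.54 (interval -0.76 to -0.31), RAB31 against RAB22A by -0.40 (-0.50 to -0.29), RAB5B against RAB5A by -0.34 (-0.49 to -0.20) and RAB3D against RAB3B by -0.30 (-0.57 to -0.04). For RAB4A against RAB4B (-0.45, interval -0.94 to 0.05), RAB27A against RAB27B (-0.16, interval -0.39 to 0.07) and RAB40C against RAB40B (-0.14, interval -0.75 to 0.50) the interval included 0. The intervals of the RAB4 and RAB40 pairs still hold sizeable differences, so they do not show that these paralogs had the same ratio.

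**Figure D3:**
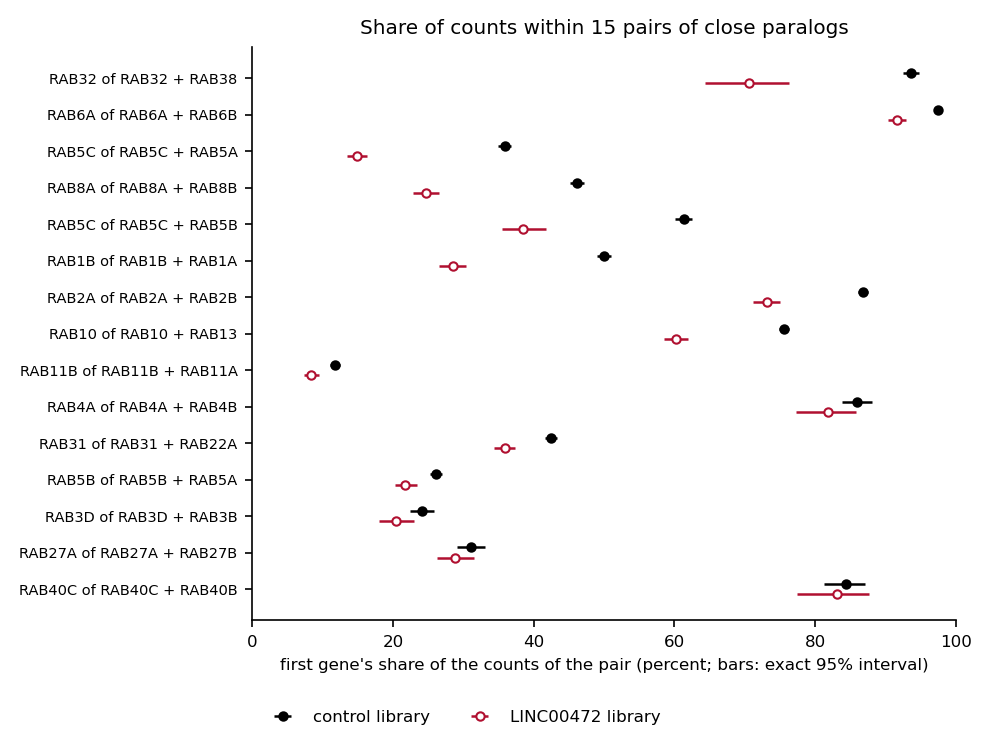
Share of the counts of each of 15 paralog pairs held by the first-named member, in percent, in the control library (filled points) and the LINC00472 library (open points), with exact 95% intervals. The shares of RAB32, RAB6A, RAB5C, RAB8A, RAB1B, RAB2A and RAB10 lie apart between libraries, and the intervals overlap in 4 pairs, those of RAB27A, RAB40C, RAB4A and RAB3D.

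Transcripts of paired members differ in length and base composition. In 11 of the 15 pairs the lower member had the higher GC content, and in 11 it had the shorter transcript. These counts were not made for other pairs of genes, so they have no background, and some pairs share a member. RAB1B has a transcript of 2007 nt with 61.1% GC and RAB1A one of 2447 nt with 38.3%, RAB8A and RAB8B have 54.0% and 36.2% GC, and RAB5C and RAB5A 56.3% and 42.0%. RAB6A (41.8%) against RAB6B (50.5%), RAB2A (38.8%) against RAB2B (43.0%), RAB10 (41.0%) against RAB13 (46.7%) and RAB4A (39.3%) against RAB4B (61.3%) went the other way. After adjustment for these properties and for intron length, the differences were -0.68 for RAB1B against RAB1A, -0.66 for RAB8A against RAB8B, -1.22 for RAB5C against RAB5A, -1.72 for RAB2A against RAB2B, -1.89 for RAB6A against RAB6B and -2.13 for RAB32 against RAB38. The adjusted difference had the opposite sign in 4 pairs, RAB11B against RAB11A (0.23), RAB3D against RAB3B (0.32), RAB27A against RAB27B (0.08) and RAB40C against RAB40B (0.07). Of the 8 pairs that differed by at least 2-fold before adjustment, 5 did so after it, while RAB1B against RAB1A, RAB8A against RAB8B and RAB5C against RAB5B (-0.89) fell short. RAB4A against RAB4B (-1.24) passed 2-fold only after adjustment.

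Across the 48 members, which share the 2 libraries and are not replicates, Spearman's correlation of the log2 ratio was 0.07 with transcript length, -0.08 with GC content and 0.20 with total intron length. Over 12245 protein-coding genes the same correlations were 0.38, -0.21 and 0.33. Calls were then counted by base composition. Of the 16 members with the highest GC content (53.3 to 64.4%), 10 were lower and 1 was higher, beside 33.7% lower and 8.58% higher among protein-coding genes of the same GC range. Their median log2 ratio was -1.24, against -0.53 for those genes. Of the 16 in the middle (41.8 to 52.7%) 1 was lower, beside 25.2% of protein-coding genes, with a median of -0.31 against -0.29. Of the 16 with the lowest GC content (35.9 to 41.0%) 3 were lower, beside 13.7%, with a median of -0.64 against 0.03. By transcript length, 7 of the 16 shortest, 6 of the 16 in the middle and 1 of the 16 longest were lower, beside 45.5%, 26.0% and 10.7% of protein-coding genes of the same lengths. These differences from the background were not tested. The part of length and base composition in the single ratios was not tested beyond the adjusted values given.

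**Figure D4:**
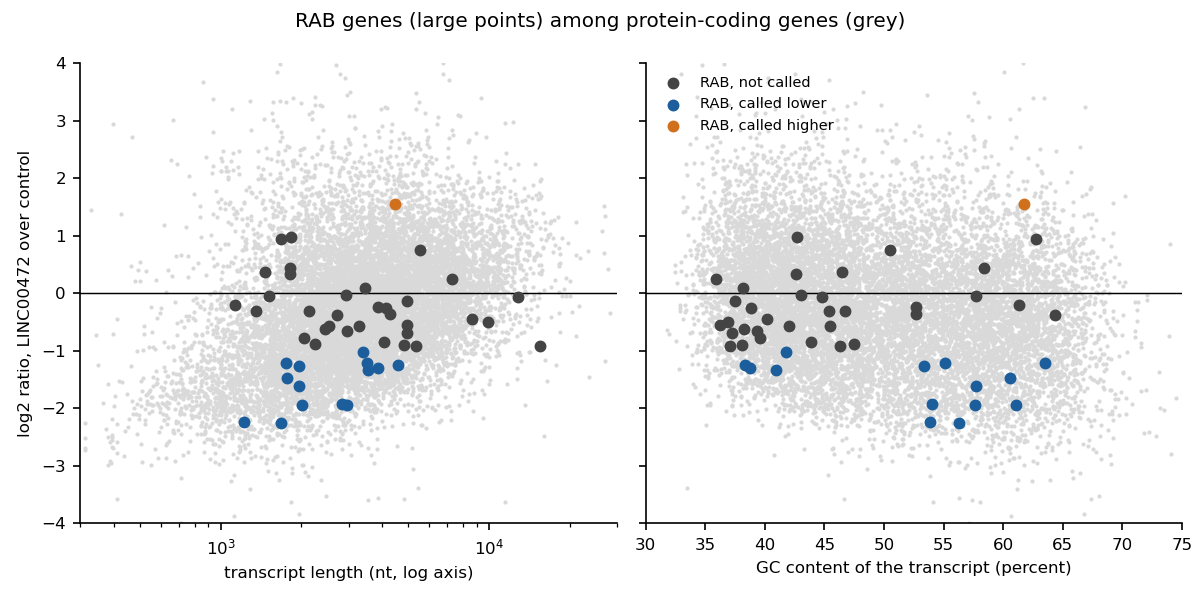
Log2 ratio against transcript length (left, log axis) and GC content of the transcript (right) for the 48 RAB genes (large points) and for protein-coding genes at the minimum (grey), of which 49 lie beyond a log2 ratio of 4 in either direction and 6 beyond the horizontal axes. Of the 14 lower RAB genes, 10 lie at a GC content of 53.3% or more, and 1 has a transcript longer than 4055 nt.

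RAB proteins are prenylated, escorted to membranes and retrieved from them by a small set of helper proteins. Of 10 genes for prenylation, escort and membrane recycling, 6 were lower and 0 higher, with a median log2 ratio of -1.20. Among all genes 23.8% were lower and 16.3% higher, and among protein-coding genes 26.3% and 11.3%. For the 10 genes the count was 4 lower with each of total counts, upper quartile factors and adjusted ratios (RABAC1 -0.92, RABGGTA -0.72). All genes had 16.3%, 14.2% and 23.9% lower in these settings. The adjusted median of the list was -0.84, against -0.33 for all genes. GDI2, the widely expressed GDP dissociation inhibitor that extracts RABs from membranes, had 4782 counts against 33288 and 84.4 against 243 FPKM (log2 -1.71, interval -1.75 to -1.67). ICMT, which methylates the prenylated end of some RABs, had a log2 ratio of -2.27, RABIF, a RAB chaperone, -1.83, and the prenylated RAB acceptor RABAC1 -1.74. The transferase subunit RABGGTA was lower (-1.13) while its partner RABGGTB had -0.01, and the escort proteins CHM and CHML had -0.02 and -0.43. The difference between this list and the lists of switches was not tested.

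The medians of exchange factors and GTPase-activating proteins lay above the all-gene median of -0.19 after TMM. With adjusted ratios the median of exchange factors was -0.38, below the -0.33 of all genes. That of GTPase-activating proteins was then -0.10. Of 43 exchange factors and subunits at the minimum, 11 were lower (25.6%, beside 23.8% of all genes) and 4 higher (9.30%, beside 16.3%), and their median was -0.10. The TRAPP complex subunits TRAPPC5, TRAPPC4 and TRAPPC2L had log2 ratios of -1.67, -1.61 and -1.45, and MON1A, part of the exchange factor for RAB7, -1.80. The TRAPP subunits did not move together. TRAPPC1 was also lower (-1.35), while TRAPPC3 (0.00), TRAPPC6A (-0.46), TRAPPC6B (-0.51) and TRAPPC10 (0.06) were not called. TRAPPC9 was called higher (1.18, and 0.43 when adjusted). On the higher side DENND1B, an exchange factor for RAB35, had 1.34, and 0.38 when adjusted. Of 35 GTPase-activating proteins, 2 were lower (5.71%) and 4 higher (11.4%), and the median was -0.00. Among them were TBC1D19 (1.74), TBC1D8B (1.27) and TBC1D8 (1.19) on the higher side and TBC1D10A, which acts on RAB35 and RAB27A, on the lower (-1.14). With upper quartile factors the exchange factors had 5 lower and 7 higher and the GTPase-activating proteins 0 lower and 6 higher. All genes had 14.2% lower and 25.1% higher with these factors, which raise every log2 ratio. With adjusted ratios the exchange factors had 10 lower and 1 higher, DENND6B (1.47), and the GTPase-activating proteins 4 lower and 1 higher, TBC1D19 (1.36). All genes had 23.9% lower and 12.6% higher with adjusted ratios.

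Effectors, which bind the active RAB, held calls on both sides. Of 54 at the minimum, 11 were lower (20.4%, beside 23.8% of all genes and 26.3% of protein-coding genes). Another 4 were higher (7.41%, beside 16.3% and 11.3%). The median of the 54 was -0.22, against -0.32 for protein-coding genes. By upper quartile factors 7 were lower and 10 higher, where all genes had 14.2% and 25.1%, and by total counts 7 and 8, where all genes had 16.3% and 22.5%. By adjusted ratios 17 were lower and 2 higher, where all genes had 23.9% and 12.6%. MYO5B, the myosin that carries RAB11 vesicles, had 69 counts against 659 (log2 -2.16), GIPC1 723 against 5813 (-1.92), the RAB9 effector RABEPK 294 against 2307 (-1.88) and PLIN3 649 against 4474 (-1.70). The RAB5 effector EEA1 (log2 0.22), the RAB11 effectors RAB11FIP1 (-0.92) and RAB11FIP2 (0.60) and the RAB27 effector SYTL2 (0.93) were not called. The median transcript had 2452 nt in the list for prenylation and recycling, 4975 nt among exchange factors, 4863 nt among GTPase-activating proteins and 4526 nt among effectors, and 2956 nt among the RABs themselves.

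Other families of small GTPases are given for scale. Of 25 ARF and ARL genes at the minimum, 9 were lower (36%) and 2 higher (8%), and the median log2 ratio was -0.75. Of 25 RAS genes, 13 were lower (52%) and 1 higher (4%), the median being -1.11, beside 23.8% lower and 16.3% higher among all genes. Protein-coding genes had 26.3% lower and 11.3% higher. The medians of both lists lay below that of the RAB genes, -0.57, and the differences between families were not tested. With ratios adjusted for transcript properties the medians were -0.79 for RAB, -0.84 for ARF and ARL and -1.07 for RAS genes, against -0.33 for all genes.

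**Figure D5:**
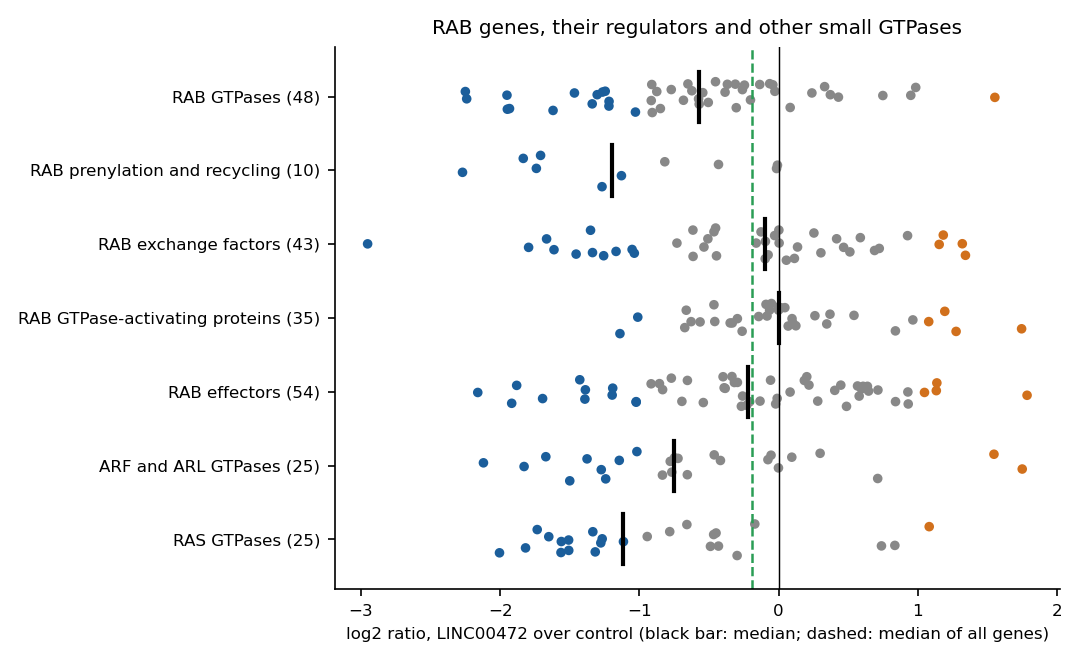
Log2 ratio of LINC00472 over control for RAB genes, their regulators and effectors and the ARF and RAS families, with 1 point per gene at the minimum, blue for called lower, orange for called higher and grey for not called. Black bars are medians, which run from -1.20 for the prenylation and recycling list to -0.00 for GTPase-activating proteins, and the dashed line is the median of all genes, -0.19.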

How the data were processed

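Members and gene lists were chosen with earlier results of these data known. The authors deposited whole-number read counts per gene and FPKM for both libraries, in a table of both and a table each, with identical counts for all 27685 genes. Per the submitters' processing notes, the tools were StringTie 1.3.4b, HISAT2 2.1.0, Trimmomatic and bcl2fastq 2.20.0 and the build hg19, without roles; neither strand setting nor counting method is given in the sources used here.

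Counts were scaled with TMM factors (edgeR 4.0.16, R 4.3.3; 1.11 for LINC00472, 0.905 for control). Log2 ratios used a prior count of 0.5 and exact conditional (Clopper-Pearson) 95% intervals, narrow at these depths except for genes near 1 CPM. The rule of size is stated with the first counts. Named were called members, the 12 highest by mean FPKM, paralogs at the minimum, and up to 4 called genes of each list at 5 CPM or more. Of the genes at the minimum, 95.7% matched GENCODE 29 for transcript properties. The adjusted ratios are residuals of splines (5 knots, degree 3; R squared 0.120; scikit-learn 1.9.0) over 13407 genes. RAB29 was assigned to its group after values were seen, and coding sequence features were added then too. Not-called list genes and examples beyond this rule (DENND1B, DENND6B, TRAPPC1, TRAPPC3, TRAPPC6A, TRAPPC6B, TRAPPC9, TRAPPC10, RABGGTA, EEA1, RAB11FIP1, RAB11FIP2, SYTL2, BAG2, MXD3 and ISY1) were also chosen after values were seen. Another comparison family is not reported here. The procedure was tested on simulated counts that held counting error only, so that test cannot show how calls would hold between replicates. Alternatives were upper quartile factors, total counts, size factors from DESeq2 1.42.0, FPKM (0.5 added), a prior count of 5, single-library tables, other minimums, adjusted ratios and a thinned control.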

Additional observations from a re-analysis of the deposited data

How the results depend on the processing

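Ratios of the 48 members at the minimum were recomputed under 10 alternatives, which gave 475 values: 437 stayed on the same side of the rule of size, 21 fell short of it, 17 newly met it and 0 changed direction while called. Single-library tables hold identical counts, DESeq2 size factors gave nearly the ratios of TMM, and other minimums change no ratio. Values from these alternatives had little or no room to move, so the 437 is no measure of stability. Against 14 lower members, total counts gave 9 (18.75%), upper quartile factors 7 (14.6%) and FPKM 8 (16.7%). Among all genes 16.3%, 14.2% and 17.3% were lower in these settings. Against 1 higher member, total counts gave 4, upper quartile factors 4, adjusted ratios 3 and the thinned control 3. Among all genes 22.5%, 25.1%, 12.6% and 16.3% were higher in these settings. The family's median of -0.57 became -0.28 with total counts, -0.18 with upper quartile factors, -0.39 with FPKM and -0.79 with adjusted ratios. Total counts and upper quartile factors move every gene by the same amount; the cause of the other shifts was not tested. Adjusted ratios gave 18 lower members, or 37.5%, beside 23.9% of all genes. These ratios added RAB5B, RAB7A, RAB8B, RAB21, RAB23, RAB30 and RAB31 and lost RAB11B, RAB34 (log2 -0.95) and RAB42. Ratios of RAB5C stayed between -2.25 and -1.86, of RAB32 between -2.27 and -1.67, of RAB1B between -1.97 and -1.52, of RAB35 between -1.95 and -1.56 and of RAB8A between -1.93 and -1.55. Shares of summed FPKM by group moved by less than 1.5 times with CPM per kb of annotated transcript (late endosomal RABs 12.6% against 9.35%). No paired analysis was possible because each group holds 1 library. Depth limits the members near 1 CPM, such as RAB17 and RAB40B, and the 13 below it.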

Other observations

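Noncoding and readthrough loci named for RAB genes did not always share their ratio. RAB11B-AS1, an RNA antisense to RAB11B, had 56 counts against 72 in the control (log2 0.72, interval 0.20 to 1.25), while RAB11B had a log2 ratio of -1.22. RAB30-AS1 had 547 counts against 619 (0.91), while RAB30 had -0.51. The readthrough locus RAB4B-EGLN2 had 0 counts against 130, or at least 20.4-fold lower when the floor is 3 counts in a library, while RAB4B had -0.20 and EGLN2, an oxygen-sensing hydroxylase gene, -1.47. Without a known strand setting, reads of loci that overlap cannot be told apart.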
